A study of Mus musculus with 12 samples.

Results

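The 10 genes described here encode secreted proteins of the follistatin and fibulin families together with Edil3 and Sparc. They were picked by gene symbol from the 47642 genes of an RNA-seq table of mIMCD3 cells, an epithelial line from the mouse inner medullary collecting duct that was isolated from animals carrying the early region of simian virus SV40. Fstl1, Fbln5 and Edil3 were picked because their levels differed strongly between genotypes, so their differences are given as descriptions with no test. Fst, Fstl3, Fbln1, Fbln2, Efemp1, Efemp2 and Sparc, 7 genes, were added by family. Of the 10 genes, 9 reached the mean of 1 normalized count required for testing, and Efemp1 did not. The tests ran over 18552 genes.

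The table holds 12 libraries, 4 from wild-type cells, 4 from 1 Pkd1-/- clone and 4 from 1 Pkd2-/- clone. Pkd1 and Pkd2 encode the polycystins, a receptor-like protein and an ion channel of the primary cilium, and loss of either gene causes autosomal dominant polycystic kidney disease. Both alleles of Pkd1 were removed nearly whole by genome editing, and internal exons of Pkd2 were deleted on both alleles in the other clone. All 3 genotypes were grown without treatment, and RNA was taken 4 days after the dishes were fully confluent. The libraries of a genotype are separate dishes of the same line, 4 sequenced of 6 grown and chosen by RNA purity, so p-values measure the spread between dishes, and the effect of a deletion cannot be told apart from that of having 1 clone.

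Follistatin binds activins and related ligands of the transforming growth factor beta family and keeps them from their receptors, and Fstl3 acts in a similar way. Fstl1 shares a follistatin-like domain but is a secreted glycoprotein with other partners, among them bone morphogenetic proteins. Fibulins are matrix glycoproteins built from calcium-binding epidermal growth factor-like repeats. Fbln5 and Efemp2 (fibulin 4) are needed for the assembly of elastic fibres, whereas Fbln1 and Fbln2 bind basement membranes and fibronectin. Sparc and Edil3 are matricellular proteins, which modulate contacts between cells and matrix rather than build it, Sparc by binding collagen and Edil3 by binding integrins.

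The labels were checked on the targeted genes. Pkd1 had 682 to 883 normalized counts in wild-type libraries and 30 to 49 in Pkd1-/- libraries. Pkd2 had 3855 to 4135 in Pkd2-/- libraries against 3438 to 4467 in wild-type libraries, and its gene count includes exons outside the deletion, so it checks nothing. Libraries totalled 25966273 to 28027792 normalized counts. Of 10 collecting duct markers, 9 were measured at a summed level of 71459 to 80301 and Aqp2 was at 0 in every library. Among them Gata3, a transcription factor gene of the collecting duct, was called lower in Pkd1-/- cells, at 48.5 against 226.8 normalized counts in wild-type (log2 fold change -2.20, adjusted p = 6.34e-10, limma), and had 354.2 in Pkd2-/- cells. Of 10 fibroblast markers, 7 were tested and Thy1 was at 0, and the summed level was 186 to 256 in wild-type, 446 to 516 in Pkd1-/- and 35 to 185 in Pkd2-/- libraries. The 6 endothelial markers summed to 0 to 10 normalized counts, with Cdh5, Kdr and Tie1 at 0 in all libraries. The 6 macrophage markers, with Adgre1 and Itgam at 0, summed to 1615 to 1817 in wild-type, 1102 to 1240 in Pkd1-/- and 1303 to 1479 in Pkd2-/- libraries.

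A gene was called when its adjusted p-value in limma was under 0.05 and its log2 fold change was at least 1 in size. Fstl1, Fbln5 and Edil3, all lower in both mutants, were picked for these very values and are left out of the counts. Of the 6 tested genes added by family, 1 was called between Pkd1-/- and wild-type cells (Fbln1, higher), where 6.24% of all genes were called, 2.96% higher and 3.28% lower. Between Pkd2-/- and wild-type cells 1 was called (Fst, lower), with a background of 9.62%, made up of 3.24% higher and 6.38% lower. Between the 2 mutants 3 of these 6 were called, Fst, Fbln1 and Sparc, all lower in Pkd2-/- cells, where 11.8% of genes were called, 4.53% higher and 7.23% lower.

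Fbln1 and Fbln2 reached the mean needed for testing only through the genotype in which they were high, so the counts that hold them are given as descriptions. By adjusted p alone, without a limit on size, 3 of the 6 passed in each mutant against wild-type (27.1% of all genes in Pkd1-/- and 42.3% in Pkd2-/- cells) and 4 between the mutants (46.3%). The libraries of the 2 groups did not overlap for 4 of the 6 between Pkd1-/- and wild-type cells, where this held for 27.1% of all genes, for 3 between Pkd2-/- and wild-type cells (37.2%) and for 4 between the mutants (41.8%). Nothing about the members is read from these looser counts.

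**Figure D1:**
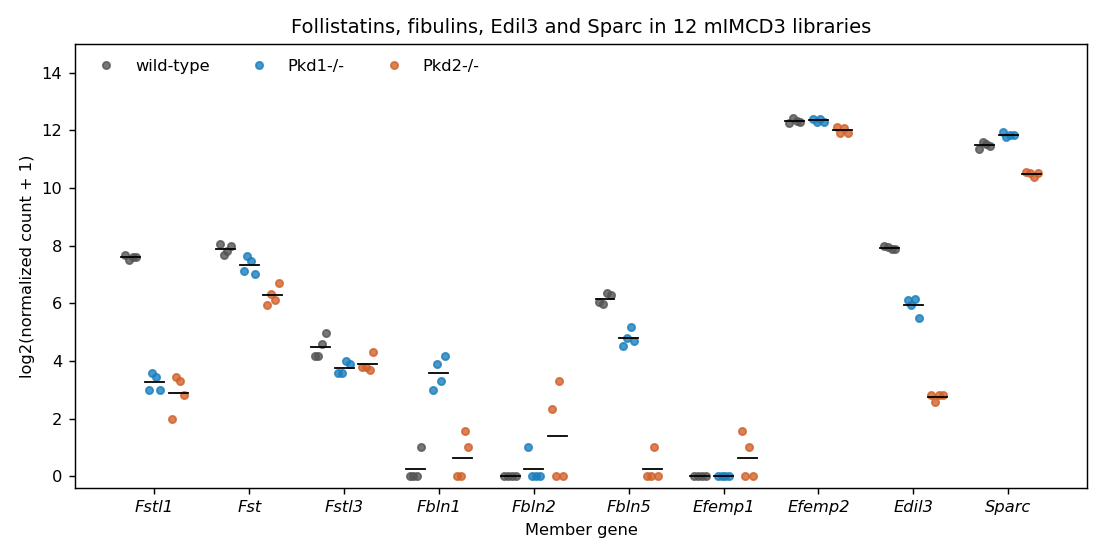
Level of the 10 genes in each library, as log2(normalized count + 1), with 1 point per library and a bar at the mean of the 4 libraries of a genotype. Fstl1, Fst, Fbln5 and Edil3 were lower in both mutants than in every wild-type library, Fbln1 was at 7 to 17 normalized counts in Pkd1-/- and at most 2 elsewhere, and Efemp2 and Sparc were the most abundant.

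Fstl1 (ENSMUSG00000022816, chr16:37776873-37836514, plus strand, GRCm38) had 202, 179, 194 and 196 normalized counts in the wild-type libraries. It had 7, 11, 10 and 7 in Pkd1-/- and 3, 10, 9 and 6 in Pkd2-/- libraries. The mutants overlapped each other and lay far below wild-type. Means were 192.8 ± 9.78 (SD, n = 4), 8.75 ± 2.06 and 7 ± 3.16, so that 4.54% of the wild-type level was left in Pkd1-/- and 3.63% in Pkd2-/- cells. On the log2(normalized count + 1) scale these were differences of -4.34 and -4.70. In cultures sequenced in bulk, fewer cells with a transcript and less transcript per cell cannot be told apart. In a survey of the 28 tested genes within 1 Mb of Fstl1, 1 was called lower in Pkd1-/- cells (3.28% of all genes). In Pkd2-/- cells 1 was called higher (3.24% of all genes), and the median log2 fold changes were -0.04 and 0.09. Ndufb4, a subunit gene of respiratory complex I and the nearest tested gene on the lower-coordinate side, differed by -0.30 in Pkd2-/- cells (adjusted p = 0.0114, limma).

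Promoter sequence was taken from RefSeq (GRCm38.p6) as the 250 bases before a start site, which the table gave for 8 of the 10 genes in 12 windows. Each window was searched on both strands for the TATA box TATAAA, for the CCAAT element, for the GC box GGGCGG and for the E-box CACGTG, which do not overlap one another in the windows printed and are in capitals there. Of 32851 such windows of all genes, 12.4% hold the TATA box, 33.8% the CCAAT element, 32.7% the GC box and 6.02% the E-box, and the median window has 52.4% G and C and 6 CpG dinucleotides. Sequences are shown for Fstl1, whose level was far lower in both mutants, and further on for Fbln5, Fbln1 and Efemp2, 3 fibulins with 3 different patterns. The Fstl1 window, chr16:37776805-37777054, has 68.0% G and C, 16 CpG and 2 matches to GGGCGG. The GENCODE annotation starts the gene earlier, at 37776873, so only the 68 bases upstream of it are shown, on the plus strand, and these hold none of the 4 motifs.
Fstl1 chr16:37776805-37776872: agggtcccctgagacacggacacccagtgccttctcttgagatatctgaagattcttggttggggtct

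Fst (ENSMUSG00000021765, chr13:114452290-114458951, minus strand), the activin antagonist itself, declined in a graded order. The wild-type libraries had 266, 203, 226 and 255 normalized counts. The Pkd1-/- libraries had 139, 201, 178 and 129, and the Pkd2-/- libraries had 61, 80, 68 and 104. No pair of genotypes overlapped, although the highest Pkd1-/- library came within 2 counts of the lowest wild-type one. Fst fell by 1.61 on the log2 scale in Pkd2-/- cells (SE 0.17, adjusted p = 2.37e-07, limma), to 32.9% of wild-type. In Pkd1-/- cells the log2 fold change was -0.57 (SE 0.17, adjusted p = 0.0155), which passed the p threshold but not the size required for a call. The p threshold was missed with no trend of the variance (adjusted p = 0.0513), without wild-type replicate 1 (0.0527) and without Pkd1-/- replicate 4 (0.0606). The difference between the mutants was -1.04 (adjusted p = 3.71e-05). Its size lay under 1 without Pkd1-/- replicate 2 or 3 or Pkd2-/- replicate 1 or 3, and the range over single libraries left out was -1.19 to -0.93. An antisense transcript, Gm47040, shares 115 bases (2.51%) of the Fst exons.

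Fstl3 (ENSMUSG00000020325, chr10:79777272-79782630, plus strand), the other secreted activin inhibitor, was low throughout. It had 17, 17, 23 and 30 normalized counts in wild-type, 11, 11, 15 and 14 in Pkd1-/- and 13, 13, 12 and 19 in Pkd2-/- libraries. The Pkd1-/- libraries all lay below wild-type and the Pkd2-/- libraries overlapped it. Neither log2 fold change passed the test, with -0.70 in Pkd1-/- (95% confidence interval -1.27 to -0.13, adjusted p = 0.0646, limma) and -0.56 in Pkd2-/- cells (-1.13 to 0.01, adjusted p = 0.110). The Pkd1-/- value passed the p threshold, but not the size for a call, with a pseudocount of 5 (adjusted p = 0.0451), a minimum mean of 10 (0.0448) and no trend of the variance (0.0285), while over all other alternatives the adjusted p was 0.0545 to 0.203. The exons of Prss57 on the opposite strand cover 1157 bases, or 47.3%, of the Fstl3 exons, and the strand setting of the counting is not given in the sources used here. Prss57 itself was listed at 0 in all 12 libraries.

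Normalized counts were divided by the length of all exons of a gene to compare genes with each other. Per kb of exon, the 3 follistatin genes summed to 99.9 ± 9.18 (SD, n = 4) for wild-type, against 42.2 ± 7.66 for Pkd1-/- and 24.3 ± 5.41 for Pkd2-/- cells. In wild-type cells Fst made up 51.7% of that sum, Fstl1 39.4% and Fstl3 8.87%. The share of Fstl1 was 4.18% in Pkd1-/- and 5.94% in Pkd2-/- cells, and Fst then made up 83.2% and 70.0%. Fstl3, whose own level did not pass the test, thereby took 24.1% of the sum in Pkd2-/- cells.

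**Figure D2:**
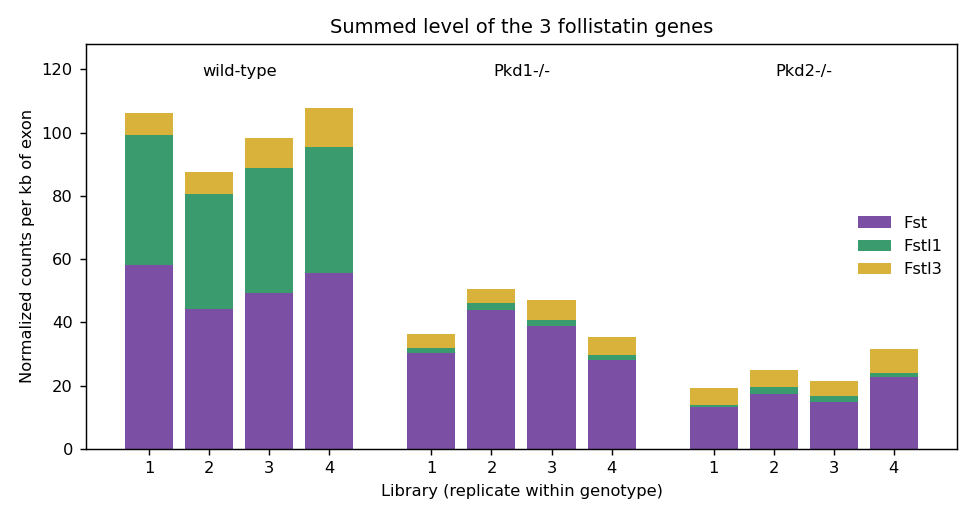
Normalized counts per kb of exon of Fst, Fstl1 and Fstl3, stacked, in each of the 12 libraries (bars start at 0). The wild-type libraries reached 87.6 to 107.7, the Pkd1-/- libraries 35.3 to 50.5 and the Pkd2-/- libraries 19.2 to 31.6 per kb. The Fstl1 segment, of a gene picked for its difference, is nearly absent from both mutants.

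Fbln5 (ENSMUSG00000021186, chr12:101746565-101819055, minus strand), which tethers elastin-producing cells and cross-linking enzymes to growing elastic fibres, was the 1 fibulin picked for its difference. Wild-type libraries had 65, 62, 81 and 77 normalized counts. Pkd1-/- libraries had 22, 27, 35 and 25, and Pkd2-/- libraries had 0, 0, 1 and 0. The 3 genotypes did not overlap, and in Pkd2-/- cells the gene was under the 3 counts that a count of 0 allows per library. Relative to wild-type, 38.2% was left in Pkd1-/- cells, a log2 difference of -1.37. In Pkd2-/- cells Fbln5 was at least 23.8-fold lower than in wild-type and at least 9.08-fold lower than in Pkd1-/- cells, both computed against a floor of 3 counts per library. Of the 22 tested genes within 1 Mb, 1 was called higher in Pkd1-/- cells (2.96% of all genes) and 1 lower in Pkd2-/- cells (6.38%). That neighbour was Tc2n, the nearest tested gene on the lower-coordinate side, whose log2 fold change was -2.65 in Pkd2-/- cells (adjusted p = 0.000287, limma) and -0.11 in Pkd1-/- cells (adjusted p = 0.910). Trip11, a Golgi protein gene on the other side, was higher by 0.54 in Pkd2-/- cells (adjusted p = 0.000379).

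The upstream window of Fbln5 lies on the minus strand, has 65.2% G and C and 21 CpG, and holds 2 matches to GGGCGG (as CCGCCC) and 1 to CCAAT. A second RefSeq start downstream has a window with 49.6% G and C and none of the 4 motifs.
Fbln5 chr12:101819120-101819369: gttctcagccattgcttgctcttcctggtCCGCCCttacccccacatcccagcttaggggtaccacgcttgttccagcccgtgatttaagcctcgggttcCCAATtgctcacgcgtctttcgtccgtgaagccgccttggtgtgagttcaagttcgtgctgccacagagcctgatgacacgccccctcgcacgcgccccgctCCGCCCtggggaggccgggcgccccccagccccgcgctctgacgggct

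Fbln1 (ENSMUSG00000006369, chr15:85205949-85286535, plus strand), a fibulin of basement membranes, was the 1 fibulin called higher in a mutant. It had 0, 0, 0 and 1 normalized counts in wild-type libraries, 7, 14, 9 and 17 in Pkd1-/- libraries and 0, 0, 2 and 1 in Pkd2-/- libraries. All Pkd1-/- libraries lay above all others. Fbln1 reached the mean of 1 needed for testing only through the Pkd1-/- libraries, so a difference was built into its passing the filter. It was called higher in Pkd1-/- cells (log2 fold change 3.35, SE 0.50, adjusted p = 4.03e-05, limma) and was at least 3.92-fold higher there, with wild-type set at the floor of 3 counts per library. Between the mutants it was lower in Pkd2-/- cells by a log2 fold change of -2.95 (adjusted p = 6.77e-05). Between Pkd2-/- and wild-type cells the log2 fold change was 0.40 (95% confidence interval -0.65 to 1.44, adjusted p = 0.571). The gene was low even there, at 2.69 ± 1.05 (SD, n = 4) normalized counts per kb. The summed fibroblast markers were also higher in Pkd1-/- libraries, 446 to 516 against 186 to 256 in wild-type, and their part in the result was not tested. That sum moved through Postn (means of 55.5 and 296.5) and Col3a1 (4.75 and 66.25), the 2 of 7 tested markers called higher. The others did not follow, Acta2 averaging 119.5 and 82.5 and Dcn 25.75 and 20, and the median log2 fold change of the list was -0.01.

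The window of Fbln1 printed here has 46.4% G and C, 7 CpG and 1 match to CACGTG. A second RefSeq window, chr15:85205758-85206007, holds the same CACGTG match and reaches past the GENCODE start of the gene. It has 62.4% G and C, 14 CpG and 1 match to GGGCGG.
Fbln1 chr15:85205699-85205948: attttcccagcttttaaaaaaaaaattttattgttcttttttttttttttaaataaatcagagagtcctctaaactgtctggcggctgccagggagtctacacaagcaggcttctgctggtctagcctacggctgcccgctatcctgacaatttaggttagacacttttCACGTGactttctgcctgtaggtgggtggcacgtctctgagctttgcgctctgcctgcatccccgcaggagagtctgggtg

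Fbln2 (ENSMUSG00000064080, chr6:91212455-91272540, plus strand) and Efemp1 (fibulin 3, ENSMUSG00000020467, chr11:28853204-28926743, plus strand) were at or near 0. Fbln2 had 0 normalized counts in all wild-type libraries, 1, 0, 0 and 0 in Pkd1-/- and 4, 0, 9 and 0 in Pkd2-/- libraries. Efemp1 had 0 in all wild-type and Pkd1-/- libraries and 2, 0, 1 and 0 in Pkd2-/- libraries. Both genes were thus found in the same pair of Pkd2-/- dishes, replicates 1 and 3. Fbln2 reached the mean needed for testing only through these libraries, and its log2 fold change in Pkd2-/- cells was 1.41 (95% confidence interval -0.03 to 2.86, adjusted p = 0.112, limma). It was called without Pkd2-/- replicate 2 or replicate 4, with up to 1.88. For Efemp1 the exact two-sided permutation test of Pkd2-/- against wild-type gave p = 0.429, or 0.563 adjusted over 21 such tests of members. The smallest p that 4 against 4 libraries allow is 0.0286. With counts in only 2 of these libraries, both Pkd2-/-, the smallest possible p is 0.429 itself. The test of Efemp1 could therefore not have passed, and nothing is read from it.

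The same 2 dishes stood apart from the other Pkd2-/- dishes in 3 fibrillar collagens of the fibroblast list, singled out after their values were seen. Col1a1, Col1a2 and Col3a1 summed to 39 and 117 normalized counts in Pkd2-/- replicates 1 and 3 and to 4 and 2 in replicates 2 and 4. Wild-type libraries had 6 to 14 and Pkd1-/- libraries 64 to 80, of which Col3a1 made up 62 to 69. Of the other fibroblast markers, Postn was also higher in these dishes, with 3 and 22 normalized counts against 0 and 1. Acta2, with 19 and 22 against 20 and 23, and Dcn, with 13 and 24 against 11 and 16, did not set them apart as clearly. Lum had 1 count in replicate 1 only, and Pdgfra, Pdgfrb and Thy1 were at 0 in all 4. The summed collecting duct markers were 79998 and 80130 in replicates 1 and 3 and 77208 and 75847 in the others. What part such transcripts have in the Fbln2 and Efemp1 counts was not tested. With Pkd2-/- replicates 1 and 3 left out, an alternative chosen after seeing the data, Fst was still called in Pkd2-/- cells against wild-type. Fbln1 was called in Pkd1-/- cells against wild-type there too. That comparison loses no library in this setting, so its log2 fold change could not move and the call is no check. Between the mutants Fbln1 and Sparc were still called and Fst was not, at -0.80 (adjusted p = 0.00143).

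**Figure D3:**
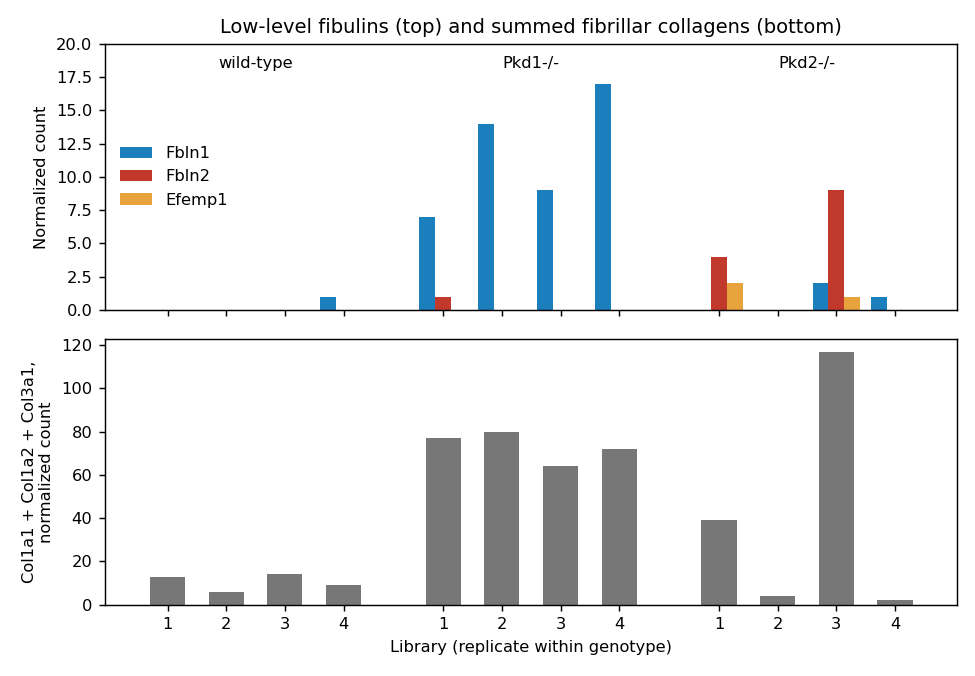
Normalized counts of Fbln1, Fbln2 and Efemp1 (top) and the sum of Col1a1, Col1a2 and Col3a1 (bottom) in each library, all axes starting at 0. Fbln2 and Efemp1 appear in Pkd2-/- replicates 1 and 3, the dishes with collagen sums of 39 and 117, while Fbln1 appears in all Pkd1-/- libraries, with collagen sums of 64 to 80.

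Efemp2 (ENSMUSG00000024909, chr19:5473954-5482517, plus strand), which recruits lysyl oxidase to elastin, was the main fibulin transcript. It had 4886, 5525, 5173 and 5062 normalized counts in wild-type, 5361, 5037, 5362 and 5068 in Pkd1-/- and 4435, 3854, 4341 and 3807 in Pkd2-/- libraries. The first 2 genotypes overlapped and Pkd2-/- lay below both. Efemp2 fell by 0.33 on the log2 scale in Pkd2-/- cells (SE 0.06, adjusted p = 7.89e-05, limma), under the size for a call, to 79.6% of wild-type. In Pkd1-/- cells the log2 fold change was 0.01 with a 95% confidence interval of -0.10 to 0.13 (adjusted p = 0.899). Per kb of exon, Efemp2 made up between 99.2% (wild-type) and 99.9% (Pkd2-/-) of the summed level of the 5 fibulin members. The large relative changes of Fbln5 and Fbln1 took place within less than 1% of that sum. Fbln7, a fibulin that is not a member, is left out of it, so these shares hold for the 5 members only. The level of Fbln7 per kb was 47.6 for wild-type cells, 12.5 without Pkd2 and 40.8 without Pkd1, above Fbln5 each time. Mus81, a DNA repair nuclease gene on the opposite strand, shares 173 bases (4.57%) of the Efemp2 exons and had 612.2, 810.8 and 547.2 normalized counts on average, in the order wild-type, Pkd1-/-, Pkd2-/-.

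The first of 3 RefSeq windows of Efemp2 has 59.2% G and C, 15 CpG and 2 matches to GGGCGG, 1 on each strand, and is shown beside the others as that of the abundant family member. The later windows of Efemp2, with 75.6% and 78.8% G and C, hold 5 matches to GGGCGG each.
Efemp2 chr19:5473696-5473945: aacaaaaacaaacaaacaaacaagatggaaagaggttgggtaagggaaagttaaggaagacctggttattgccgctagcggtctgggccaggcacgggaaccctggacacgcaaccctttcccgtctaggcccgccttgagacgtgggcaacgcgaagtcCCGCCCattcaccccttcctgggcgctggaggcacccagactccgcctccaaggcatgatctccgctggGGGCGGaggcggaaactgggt

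Edil3 (ENSMUSG00000034488, chr13:88821472-89323223, plus strand), an integrin ligand with an RGD motif also known as Del-1, had 251, 250, 233 and 237 normalized counts in wild-type libraries. It had 68, 61, 70 and 44 in Pkd1-/- and 6, 5, 6 and 6 in Pkd2-/- libraries. The 3 genotypes were widely separated and the libraries within each close together. Means were 242.8 ± 9.11 (SD, n = 4), 60.75 ± 11.8 and 5.75 ± 0.5, so Pkd1-/- cells held 25.0% and Pkd2-/- cells 2.37% of the wild-type level, and the Pkd2-/- level was 9.47% of the Pkd1-/- level. The log2 difference of Pkd2-/- cells was -5.18 from wild-type and -3.17 from Pkd1-/- cells. The order of genotypes was that of Fbln5 and of Fst. Only 6 tested genes lie within 1 Mb of Edil3, of which 1 was called higher in Pkd1-/- cells against wild-type (2.96% of all genes). None was called in Pkd2-/- cells against wild-type (9.62% of all genes), and 2 were called lower in Pkd2-/- than in Pkd1-/- cells (7.23%). So few genes allow no comparison with these shares.

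Sparc (ENSMUSG00000018593, chr11:55394500-55423183, minus strand), a collagen-binding glycoprotein of remodelling matrix, moved in opposite directions in the mutants. Wild-type libraries had 2634, 3082, 2975 and 2834 normalized counts. Pkd1-/- libraries had 3935, 3530, 3671 and 3667, and Pkd2-/- libraries had 1497, 1470, 1340 and 1488. No genotypes overlapped. Sparc rose by a log2 fold change of 0.36 in Pkd1-/- cells (SE 0.06, adjusted p = 6.07e-05, limma) and fell by 0.99 in Pkd2-/- cells (SE 0.06, adjusted p = 4.99e-11), and neither reached the size for a call. The second value sits at the threshold, and it passed 1 in size without wild-type replicate 1 or Pkd2-/- replicate 1 or 4, with a range of -1.03 to -0.95. Between the mutants the log2 fold change was -1.35 (SE 0.06, adjusted p = 3.85e-13), and Sparc was called. Fat2, a cadherin gene and the nearest tested gene on the lower-coordinate side, had a mean of 0.75 normalized counts in wild-type cells and a log2 fold change of 2.35 in Pkd1-/- cells (adjusted p = 0.0135).

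**Figure D4:**
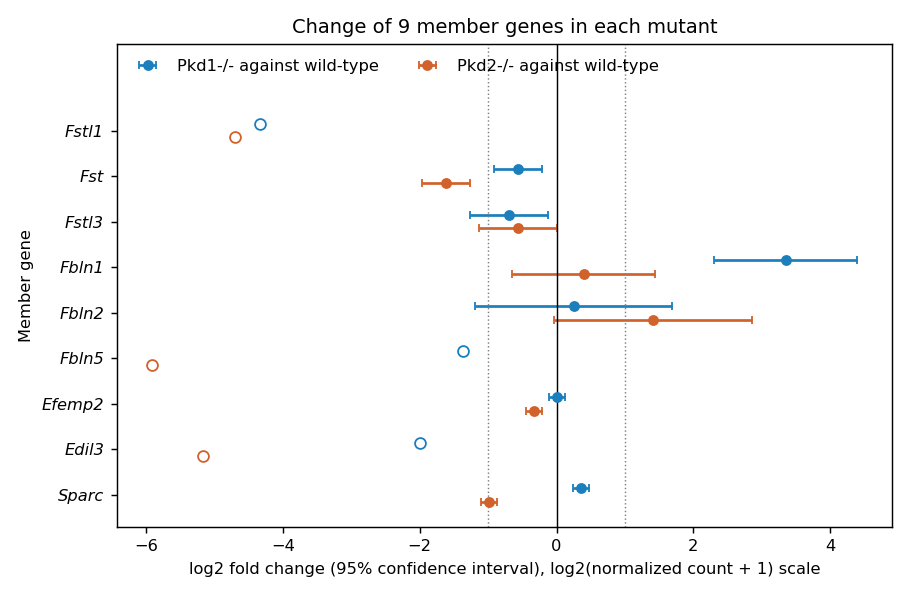
Log2 fold change of the 9 tested members in Pkd1-/- (blue) and Pkd2-/- (orange) cells against wild-type, with dotted lines at the size needed for a call. Filled points carry 95% confidence intervals, and open points are Fstl1, Fbln5 and Edil3, picked for their differences and shown with no error. Sparc lies at 0.36 and -0.99, Fbln1 at 3.35 and 0.40.

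Ordered by normalized counts per kb of exon, the wild-type cells had Efemp2 at 1363 ± 71.2 (SD, n = 4), Sparc at 760.6 ± 51.1, Fst at 51.75 ± 6.22, Fstl1 at 39.2 ± 1.99 and Edil3 at 17.75 ± 0.67. The libraries of neighbours in this order did not overlap down to Fbln5 at 10.3 ± 1.33, which overlapped Fstl3 at 8.90 ± 2.53. Fbln1, Fbln2 and Efemp1 came last at or near 0. In Pkd1-/- cells Fstl1 dropped to the eighth place with 1.78 ± 0.42, and Fstl3, Edil3, Fbln5 and Fbln1 before it each overlapped the next. In Pkd2-/- cells Efemp2, Sparc, Fst and Fstl3 kept separate levels, and the 6 genes after them overlapped their neighbours, Fbln5 being last at 0.04. Efemp2, Sparc and Fst held the first 3 places in every genotype.

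Genes of the pathways around the members were read from lists compiled by function. The activin and bone morphogenetic protein list held 22 ligands, receptors and Smads, of which 18 were tested. Of these 1 was called lower in Pkd1-/- cells (3.28% of all genes), and 1 higher and 1 lower in Pkd2-/- cells (3.24% and 6.38% of all genes), near the background. The median log2 fold changes were -0.05 and 0.03 against 0.01 and -0.01 over all tested genes. Gdf15, a stress-induced member of the ligand family, had 107 to 164 normalized counts in wild-type, 54 to 83 in Pkd1-/- and 1212 to 1648 in Pkd2-/- libraries, and rose in Pkd2-/- cells (log2 fold change 3.33, SE 0.15, adjusted p = 1.41e-12, limma). Bmp6 averaged 13.25 normalized counts in wild-type, 0 without Pkd1 and 5.5 without Pkd2, and was called lower in both. The Pkd2-/- call (log2 fold change -1.22, adjusted p = 0.0305) was lost without wild-type replicate 3 or 4 or Pkd2-/- replicate 2, 3 or 4, with values of -1.52 to -0.89, and with a pseudocount of 0.5 or 5. Inhba, which encodes the activin A subunit that follistatin binds, had means of 4, 6.25 and 2.5 and passed in neither comparison with wild-type (adjusted p = 0.394 and 0.349). The activin receptors Acvr2a and Acvr1b had log2 fold changes between -0.10 and 0.14 and did not pass. Acvr2b and the BMP receptor gene Bmpr2 did not pass in Pkd1-/- cells (adjusted p = 1 and 0.764) and were higher in Pkd2-/- cells by 0.76 (adjusted p = 0.00701) and 0.57 (adjusted p = 0.0005), under the size for a call.

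Of the elastic fibre and microfibril list, 16 of 20 genes were tested. In Pkd1-/- cells 3 were called higher and 1 lower, where 2.96% and 3.28% of all genes were, and in Pkd2-/- cells 6 were called lower and none higher, where 6.38% of all genes were lower and 3.24% higher. The medians were -0.19 and -0.36. Eln, which encodes elastin, was among the 4 that were too low to test, and Fbn1, the main fibrillin, averaged at most 2 normalized counts in any genotype. Ltbp1, which holds latent transforming growth factor beta in the matrix, had 580 to 640 normalized counts in wild-type, 1512 to 1703 in Pkd1-/- and 195 to 277 in Pkd2-/- libraries, without overlap. Its log2 fold changes were 1.38 (adjusted p = 4.88e-10) and -1.39 (adjusted p = 2e-10). Hmcn1, a fibulin-related giant matrix protein gene, had means of 7.5, 31.25 and 0.25 and was likewise called higher in Pkd1-/- and lower in Pkd2-/- cells.

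Mfap2, a microfibril glycoprotein gene, was called lower in both mutants, from 37 ± 8.21 normalized counts (SD, n = 4) to 2.25 ± 1.89 without Pkd1 and 4.5 ± 1.29 without Pkd2. Ltbp2, Ltbp4 and Fbln7, a further fibulin, were called lower in Pkd2-/- cells, by log2 fold changes of -3.80, -2.24 and -1.91. Loxl3, a lysyl oxidase family gene, was at 1.00 in Pkd1-/- cells, exactly the size for a call, and under it without wild-type replicate 2 or Pkd1-/- replicate 2 or 3, with a lowest value of 0.88, and also under it with a pseudocount of 5 or upper quartile rescaling.

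Among 12 other genes with SPARC or follistatin domains 7 were tested, with 1 called higher in Pkd1-/- cells (2.96% of all genes) and 1 higher and 2 lower in Pkd2-/- cells (3.24% and 6.38% of all genes), at medians of 0.08 and -1.04. Igfbp7, a secreted growth factor-binding protein gene, had 569 to 705 normalized counts in wild-type, 306 to 383 in Pkd1-/- and 1977 to 2316 in Pkd2-/- libraries, and rose in Pkd2-/- cells (log2 fold change 1.69, adjusted p = 1.05e-11, limma). Tmeff1, a membrane protein gene with follistatin modules, had means of 589.2, 514.2 and 166 and fell by 1.82 on the log2 scale in Pkd2-/- cells. Its relative Tmeff2, the 1 gene called higher in Pkd1-/- cells, had 15 to 20 normalized counts in Pkd1-/- libraries and at most 1 elsewhere. Tmeff2 reached the mean needed for testing only through the Pkd1-/- libraries, so a difference was built into its passing the filter. Spock2, a proteoglycan gene, had 5 to 27 in wild-type and 0 to 4 in Pkd2-/- libraries and was called lower there.

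Of 20 other matricellular genes 13 were tested, 2 were called higher and 1 lower in Pkd1-/- cells (2.96% and 3.28% of all genes), and 4 were called lower in Pkd2-/- cells (6.38% of all genes), with medians of 0.01 and 0.20. Spp1 (osteopontin) had 3578 to 4180 normalized counts in wild-type, 926 to 1121 in Pkd1-/- and 985 to 1075 in Pkd2-/- libraries, and fell by 1.92 and 1.91 on the log2 scale. Ccn4, a CCN family gene, had means of 355.5, 1826 and 30.5 and Postn (periostin) 55.5, 296.5 and 6.5, and both were called higher in Pkd1-/- and lower in Pkd2-/- cells. In Pkd2-/- replicates 1 and 3 Postn had 3 and 22 normalized counts, against 0 and 1 in the others. Ccn3 had 1 to 7 in wild-type and 0 to 2 in Pkd2-/- libraries, and its call was lost with a pseudocount of 5.

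The receptor list, integrins and other partners of the members, had 13 of 15 genes tested, with 1 called lower in Pkd1-/- (3.28% of all genes) and 3 lower in Pkd2-/- cells (6.38% of all genes) at medians of -0.18 and -0.30. Itgb3, whose protein pairs with the alpha v chain as a receptor for Edil3, had 72 to 95 normalized counts in wild-type, 6 to 14 in Pkd1-/- and 14 to 27 in Pkd2-/- libraries. It fell by 2.94 in Pkd1-/- (SE 0.26, adjusted p = 6.96e-08, limma) and by 1.97 on the log2 scale in Pkd2-/- cells (SE 0.26, adjusted p = 5.85e-06). Itgb5, the other beta chain of Edil3 receptors, had log2 fold changes of 0.03 and 0.05 (adjusted p = 0.654 and 0.372). Itgav, the alpha v chain, was at -0.26 and 0.52 (adjusted p = 0.0269 and 5.4e-05) and reached no call. Itga5 and Itgb6, chains of fibronectin receptors, were called lower in Pkd2-/- cells, by -1.91 and -1.62. In Pkd1-/- cells Itgb6 was also lower, at -0.81 (adjusted p = 4.41e-07, limma), under the size for a call. Itga5 did not pass there, at -0.18 (adjusted p = 0.141).

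**Figure D5:**
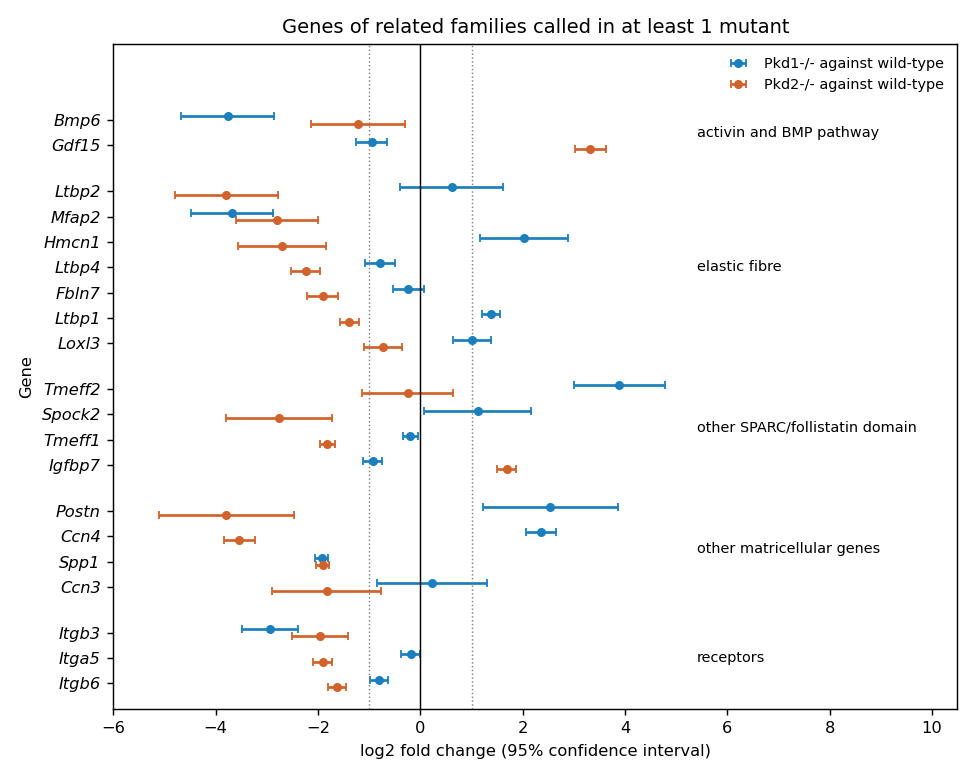
Log2 fold changes with 95% confidence intervals of the 20 genes from the 5 related lists that were called in Pkd1-/- (blue) or Pkd2-/- (orange) cells against wild-type, grouped by list. Mfap2, Spp1, Itgb3 and Bmp6 lie on the lower side in both mutants, and Ltbp1, Hmcn1, Ccn4 and Postn on opposite sides.

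The genes whose profile over the 12 libraries lay nearest to that of the 3 picked members were found by the root mean square difference of log2(normalized count + 1), each gene centred on its own mean. For Fstl1 these were the non-coding transcript 5830444B04Rik (0.41), the zinc finger gene Zfp286 (0.44) and the netrin receptor gene Unc5b (0.48), which had 23.25 to 24 normalized counts on average in wild-type and at most 0.25 in the mutants. For Fbln5 they were Pik3cg (0.37), a lipid kinase gene with means of 103.2, 49.25 and 0.75 in the same order of genotypes, then Pogk (0.41) and the growth factor gene Fgf5 (0.42). For Edil3 they were the homeobox gene Hoxc9 (0.37), with means of 47, 14.75 and 0, then Atp8a1 (0.44) and Csmd3 (0.49). The libraries share genotype means and normalization, so likeness over these 12 points is mainly likeness over 3 genotypes. The 3 nearest genes were all different with a pseudocount of 5 and with Pearson correlation.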

How the data were processed

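RNA-seq libraries of 12 mIMCD3 samples were used, 4 per genotype. According to their notes and methods, the authors trimmed reads with Trim Galore, aligned them to the mouse genome with HISAT2, counted them per gene with HTSeq and normalized the counts with DESeq2. The table deposited by the authors holds the outcome as whole numbers, a score that is the normalized count after rounding. The read counts behind them were not used here, so methods that model counts were not applied. Of the 12 sample columns 0 were left out.

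Gene positions and exon lengths came from GENCODE M21 (GRCm38), which holds 47223 of 47642 identifiers. Differences were tested with limma 3.58.1 in R 4.3.3 (lmFit, eBayes with a variance trend) on log2(normalized count + 1), with all 12 libraries in 1 model, for the 18552 genes whose mean reached 1. Tests were two-sided, with Benjamini-Hochberg adjustment within each comparison. Calls required an adjusted p under 0.05 and a log2 fold change of 1 or more in size. On simulated data with 182 changed genes, 86.8% were recovered for Pkd1-/- and 85.7% for Pkd2-/- against wild-type, with 3 and 0 of the unchanged genes called among 18194 tested. Whether genes with the sizes of change and the spread of the members would be found as often was not tested. The floor of 3 counts covers counting error only.

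The members and the gene lists were chosen with earlier results of these data known. The genes named are the 10 members, Pkd1 and Pkd2, up to 8 called genes per list by size, the nearest tested gene on either side of a member and the 3 most like profiles of Fstl1, Fbln5 and Edil3. Inhba, Acvr2a, Acvr2b, Acvr1b, Bmpr2, Eln, Fbn1, Itgb5, Itgav, Gata3, the fibroblast markers and the overlapping antisense genes were named after their values were seen. Alternatives were the pseudocount, the filter, the rescaling, the variance trend, the samples in the fit, a replicate block and leaving out libraries. Python 3.11.15 with pandas 2.3.3, numpy 2.4.6, scipy 1.17.1 and matplotlib 3.10.9 was used for the rest.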

Additional observations from a re-analysis of the deposited data

Results flagged for a closer look

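In 5 of 27 groups of 4 libraries, 1 library of a member stood apart from the other 3 by more than Dixon's critical value. That value is meant for a continuous measure. With whole numbers, any difference exceeds it once the other 3 libraries are equal, so no share given by chance is set beside this. Fstl3 had 19 normalized counts in its highest Pkd2-/- library and 13 in the next. The other 4 are differences of a single count, namely the 1 count of Fbln1 in wild-type, of Fbln2 in Pkd1-/- and of Fbln5 in Pkd2-/- libraries, and the lowest Edil3 value of 5 in Pkd2-/- libraries against 6 in the rest.

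For Fst and Sparc, added by family, the response differed between the mutants by the test of Pkd2-/- against Pkd1-/- cells in limma. The differences of the log2 fold changes were -1.04 for Fst (adjusted p = 3.71e-05) and -1.35 for Sparc (adjusted p = 3.85e-13). Fbln1 was also flagged, at -2.95 (adjusted p = 6.77e-05, limma). It reached the mean needed for testing only through the Pkd1-/- libraries, so a difference was built in and its value is a description. In each of the 3 genes all 4 Pkd2-/- libraries lay below all 4 Pkd1-/- libraries. The libraries of the 2 mutants did not overlap for 41.8% of all genes, and these 3 were flagged for this same comparison. Their separation therefore adds nothing. Both genotypes are 1 clone each.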

How the results depend on the processing

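In Pkd1-/- cells against wild-type, 1158 genes were called, 739 with a minimum mean of 10 and 5020 with no fold threshold. With no fold threshold the counts were 7852 (against 1785) for Pkd2-/- against wild-type and 8588 (against 2182) between the mutants. Leaving out single libraries gave 1095 to 1164, 1698 to 1793 and 2061 to 2186 genes, and 4 to 4, 4 to 6 and 4 to 5 members, counts that include the genes picked for their differences. For each of Fstl1, Fbln5 and Edil3, 0 of the 3 most like genes were shared with a pseudocount of 5 or with Pearson correlation. Over single libraries left out, the log2 fold change in Pkd1-/- cells ranged from 0 to 0.33 for Fbln2 (0 without Pkd1-/- replicate 1) and from -0.012 to 0.047 for Efemp2, which turned sign without wild-type replicate 1 or Pkd1-/- replicate 1 or 3. With upper quartile rescaling Sparc in Pkd2-/- cells was at -1.04 and called. With a pseudocount of 5, Fstl1 in Pkd1-/- cells was at -3.86 and Fbln5 and Edil3 in Pkd2-/- cells at -3.86 and -4.53. With Pkd2-/- replicates 1 and 3 left out, 1144, 1670 and 2093 genes were called. The deviations of same-numbered libraries had correlations of -0.07 to 0.20 over 12 pairs (median 0.03). Over 36 differently numbered pairs they were -0.20 to 0.11 (median -0.01). Correlations this weak over all genes cannot tell whether the numbers pair the samples. Ccn1 and Ccn2, singled out after their values were seen, rose with the replicate number in every genotype. A fit with the replicate block called 1170, 1790 and 2183 genes and 4, 4 and 5 members. The cause of these shifts was not tested, apart from fewer genes or samples where the setting leaves them out. Fbln1 and Fbln2 were not tested with a minimum mean of 10. Levels under 3 counts per library limit Fbln1, Fbln2, Efemp1 and Fbln5.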
